A study of Mus musculus with 3 samples.

Results

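T cells carrying a long T cell receptor beta CDR3 were examined in the inflamed sciatic nerve. A cell was a member when its barcode had exactly 1 productive beta chain (TRB) and the CDR3 of that chain, counted from the conserved cysteine to the closing phenylalanine, had 16 or more residues. By this rule, 642 of the 5915 barcodes with exactly 1 TRB were members (10.9%), with 221 in replicate 1, 305 in replicate 2 and 116 in replicate 3. They carried 439 distinct rearrangements, each a V gene, CDR3 base sequence and J gene counted once per library. The comparison was with TRBs of 13 to 15 residues, which made up 4138 cells and 2520 rearrangements.

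All 3 libraries came from CD45+ cells sorted from the sciatic nerves of neuropathic NOD.AireGW/+ mice, perfused before collection. These animals carry 1 copy of the GW allele of Aire, the thymic regulator of self-antigen expression, on the autoimmune-prone NOD background. Replicates 1 and 2 were 1 mouse each, and replicate 3 pooled the cells of 2 mice, which the barcodes do not separate. The series holds no healthy or untreated group, so all comparisons below are between TRB lengths within a library, with the library as the replicate.

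The TRB CDR3 is the most variable loop of the receptor and usually lies over the peptide when the receptor binds peptide-MHC. It is built by joining a V, a D and a J gene segment, whose ends are trimmed and between which the enzyme terminal deoxynucleotidyl transferase can add bases that no gene encodes. Its length is therefore the sum of the V bases, J bases, D bases and added bases that remain. Each TRBD segment lies upstream of its own TRBJ cluster, and TRBD2 lies downstream of the TRBJ1 genes, so that TRBD1 can join either cluster by deletion and TRBD2 ordinarily joins TRBJ2.

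The germline letters that the results turn on were read from mouse chromosome 6 of the GRCm38 build, plus strand, with GENCODE annotation as TR D or TR J gene segments. Both D segments are shown whole, in capitals. TRBD1 lies at chr6:41533201-41533212 and TRBD2 at chr6:41542163-41542176.

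TRBD1: GGGACAGGGGGC

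TRBD2: GGGACTGGGGGGGC

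TRBD2 is longer, with 14 bases against 12, and read in its 3 frames it encodes glycine-threonine-glycine-glycine, aspartate-tryptophan-glycine-glycine or glycine-leucine-glycine-glycine. TRBD1 encodes glycine-threonine-glycine-glycine, aspartate-arginine-glycine or glycine-glutamine-glycine. For the J genes whose use differed by length, the part of each that falls within the CDR3 is shown in lower case. The first 3 below were used more by long TRBs and the last 3 less.

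TRBJ2-3, chr6:41543223-41543243: agtgcagaaacgctgtatttt

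TRBJ2-2, chr6:41542957-41542979: caaacaccgggcagctctacttt

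TRBJ2-1, chr6:41542754-41542775: taactatgctgagcagttcttc

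TRBJ2-7, chr6:41543810-41543828: ctcctatgaacagtacttc

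TRBJ1-1, chr6:41533864-41533883: caaacacagaagtcttcttt

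TRBJ1-2, chr6:41534001-41534020: caaactccgactacaccttc

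The first 3 bring 21, 23 and 22 germline bases to the CDR3, and the last 3 bring 19, 20 and 20.

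The libraries held 2374, 3555 and 705 cell barcodes with a productive chain and 34630, 41338 and 5142 UMIs in all. The median long TRB had 7, 6 and 4 UMIs, equal in each library to the median TRB of 13 to 15 residues, and 7.24%, 4.26% and 6.03% of long TRBs rested on a single UMI. A productive alpha chain (TRA) was found beside the TRB in 491 of the 642 members (76.5%), against 77.98% of the cells with 13 to 15 residues. Replicates 1 and 2 shared 7 barcodes and replicates 2 and 3 shared 3, of which 2 and 1 carried a long TRB, and no shared barcode had the same rearrangement in both libraries.

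Long TRBs made up 10.3% of the cells with exactly 1 TRB in replicate 1 (95% Clopper-Pearson interval 9.07 to 11.7), 9.70% in replicate 2 (8.69 to 10.8) and 18.4% in replicate 3 (15.4 to 21.6). The mean over libraries was 12.8% ± 4.82 (SD, n = 3). These intervals cover counting error only. Replicate 3 thus stood above the others, and it was also the library with the fewest cells and the only pooled one, which cannot be told apart here. Cells of a clone share their length, and 2 large clones weighed on these shares. A single clone of 365 cells with 12 residues, outside both length classes, took part of replicate 1, and without it the long share there was 12.46%. In replicate 3 the largest clone of all was itself long, and without its 14 cells the share was 16.5%. Counted as rearrangements, the long shares were 12.4% (10.6 to 14.5), 11.8% (10.3 to 13.3) and 15.8% (12.7 to 19.2), and these intervals overlapped.

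**Figure D1:**
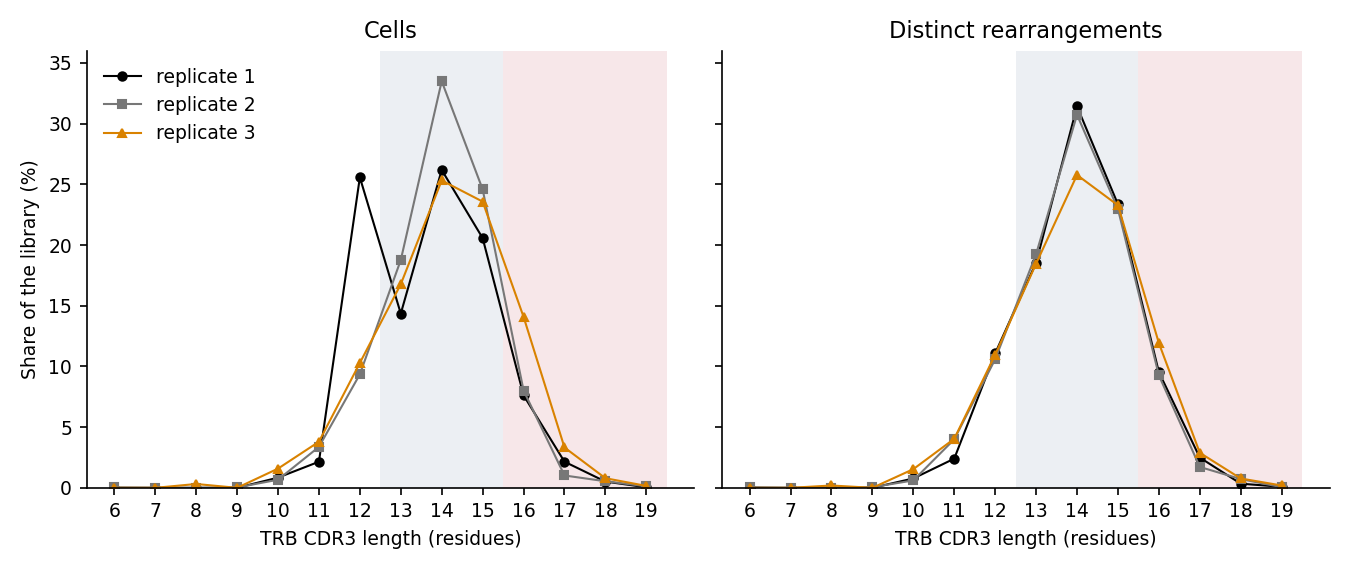
Share of each library (y axis, %) at each TRB CDR3 length (x axis, residues), for cells on the left and distinct rearrangements on the right, with 1 line per library. Red shading marks the long TRBs and blue the 13 to 15 residue TRBs; the 365-cell clone gives replicate 1 its peak at 12 residues among cells, and the 3 lines lie closer together among rearrangements.

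Most members lay just inside the limit. Of the long cells, 163 of 221, 252 of 305 and 89 of 116 had 16 residues, whereas 440, 773 and 149 cells just outside it had 15. At 17 residues there were 46, 32 and 21 cells, at 18 there were 11, 17 and 5, and at 19, the longest found, 1, 4 and 1.

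The longest TRB of each library is shown first among the members, since all 3 had the same build. Lower case marks bases that match the germline V gene on the left or the J gene on the right, and capitals mark the bases between them, which hold the D segment and the added bases.

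Replicate 1, TRBV2, TRBJ2-4: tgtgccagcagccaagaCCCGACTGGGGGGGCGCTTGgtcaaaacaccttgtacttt

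Replicate 2, TRBV15, TRBJ2-4: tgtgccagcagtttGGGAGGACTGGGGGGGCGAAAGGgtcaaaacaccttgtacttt

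Replicate 3, TRBV13-2, TRBJ2-3: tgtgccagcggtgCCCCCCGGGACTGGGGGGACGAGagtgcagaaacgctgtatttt

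Each had TRBD2 and a TRBJ2 gene. The runs in capitals were 20, 23 and 23 bases, of which 12, 13 and 12 matched TRBD2 without a break, and the J gene had lost 1, 1 and 0 bases. The replicate 2 sequence was carried by 4 cells with 1 alpha chain among them, TRAV6N-7 with TRAJ48, and the others by 1 cell each.

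The gene segments of long TRBs differed from those of 13 to 15 residues in the D and J genes and not, past the threshold, in the V genes. Over 156 features of the receptor tested together (gene segments, loop residues, clone sizes and alpha chains), 6 were called higher in long TRBs (3.85% of those tested) and 7 lower (4.49%), at an adjusted p under 0.05 in edgeR's quasi-likelihood test with the library as a block. The D and J genes held 8 of these 13 calls and the residues at the loop centre the other 5. Since the length is the sum of what each segment leaves, segment use and length are not independent measures, whereas the alpha chain and the clone size enter the rule nowhere. Shares within a family add up to the whole, so that a rise in 1 gene lowers the others.

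TRBD2 was the D segment called in 18.6%, 22.2% and 28.1% of long rearrangements in replicates 1 to 3, against 6.32%, 7.30% and 6.27% of those of 13 to 15 residues. The groups did not overlap, which also held for some features that were not called, such as TRBV1. The fitted difference was 3.22-fold (log2 fold change 1.69, SE 0.21, adjusted p = 3.93e-05). TRBD2 was called in all 16 alternative settings, with log2 fold changes from 1.09 to 2.05. Its highest adjusted p among them was 0.047, without replicate 1. TRBD1, which was called in 15.9%, 17.9% and 22.0% of long rearrangements and in 15.8%, 16.05% and 14.5% of the others, did not pass (log2 fold change 0.19, SE 0.17, adjusted p = 0.85). No D segment was called in 65.5%, 59.9% and 50.0% of long rearrangements against 77.9%, 76.7% and 79.2%, a fall of 1.29-fold (log2 fold change -0.37, adjusted p = 0.0011). This call was lost with TMM (adjusted p = 0.29), with DESeq2 (0.41), with 17 or more residues (0.35) and against 15 residues alone (0.26). A D call needs a long enough match to a D segment. A direct search of the junctions, which does not use the deposited calls, asked for at least 8 unbroken bases of a segment. The match also had to be longer than that to the other segment. It covered the 140, 206 and 79 long rearrangements whose V end could be matched, and 815, 1270 and 338 others. TRBD2 was found in 43.6%, 45.1% and 57.0% of these long rearrangements and in 19.6%, 19.3% and 18.6% of the others. The same search found TRBD1 in 20.0%, 16.99% and 22.8% against 15.7%, 15.1% and 13.02%. Matched D bases are part of the length itself, so this search is no more independent of the length rule than the deposited calls. No long rearrangement with a TRBD2 call had a TRBJ1 gene. Among rearrangements with a TRBJ2 gene alone, TRBD2 was called in 25.2%, 28.8% and 34.3% of long TRBs and in 9.60%, 11.6% and 9.65% of the others, and the fit restricted to them gave a log2 fold change of 1.43 (adjusted p = 0.00056).

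**Figure D2:**
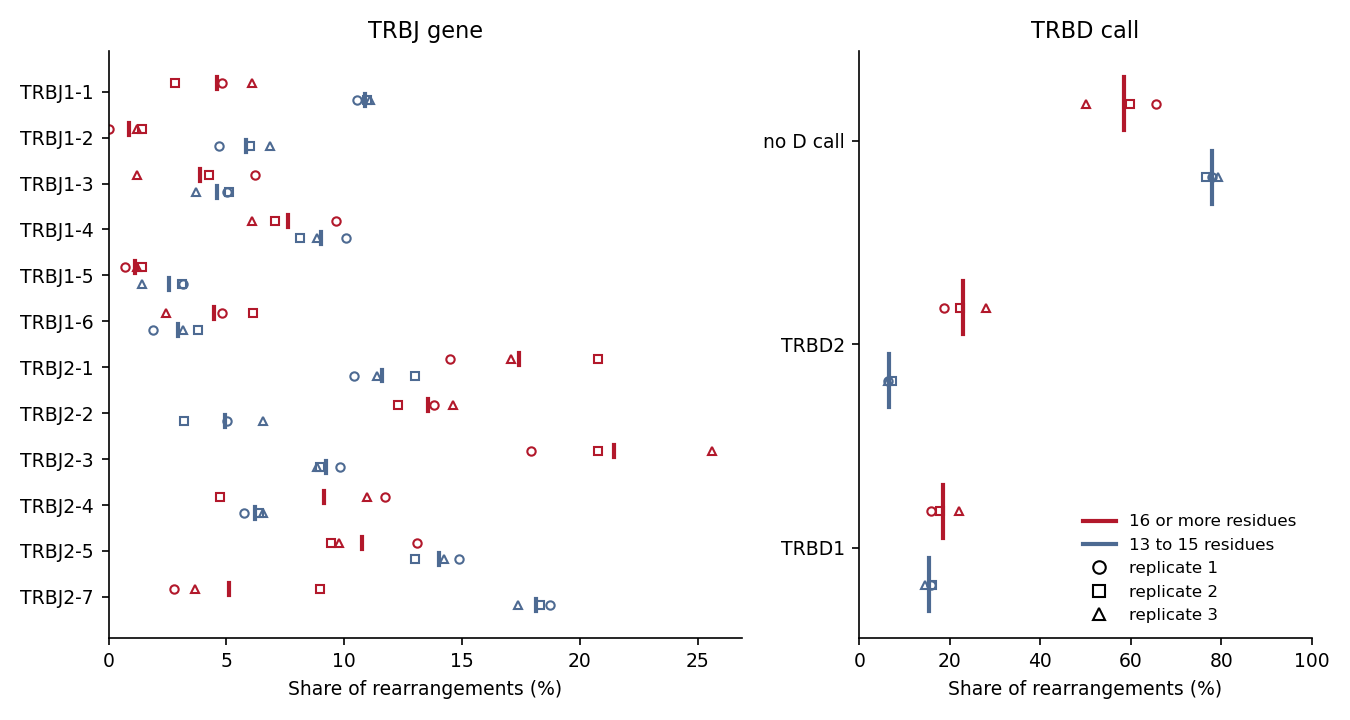
Share of distinct rearrangements (x axis, %) with each TRBJ gene (left) and each deposited D call (right), for long TRBs in red and TRBs of 13 to 15 residues in blue. Symbols are the 3 libraries and vertical bars their means; TRBD2, TRBJ2-2 and TRBJ2-3 lie to the right in long TRBs of every library, and TRBJ2-7, TRBJ1-1 and TRBJ1-2 to the left.

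Among the 12 TRBJ genes, 3 were called higher and 3 lower in long TRBs, and all 12 were seen at least once among them. TRBJ2-3 had the highest mean share of long TRBs and was tied with TRBJ2-1 in replicate 2, with 17.9%, 20.8% and 25.6% of rearrangements against 9.84%, 8.97% and 8.83% (log2 fold change 1.16, SE 0.20, adjusted p = 0.00039). TRBJ2-2 was used by 13.8%, 12.3% and 14.6% of long rearrangements against 5.04%, 3.19% and 6.55%, the largest rise in a J gene (log2 fold change 1.58, SE 0.30, adjusted p = 0.00096). For both genes the lowest long share lay above the highest share of the comparison, as it did for TRBJ2-1. The same was seen without a call for TRBV1 (9.66% over 8.83%) and TRBV12-2+TRBV13-2 (11.3% over 10.4%). A lack of overlap therefore does not set the called genes apart. TRBJ2-1 was used by 14.5%, 20.8% and 17.1% against 10.4%, 13.004% and 11.4%, a smaller difference near the threshold (log2 fold change 0.60, SE 0.18, adjusted p = 0.046) that passed in 5 of 16 alternative settings.

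The 3 J genes that fell were those with the fewest germline bases in the CDR3. TRBJ2-7, which is the most used J gene of the 13 to 15 residue TRBs at 18.7%, 18.3% and 17.4%, was found in 2.76%, 8.96% and 3.66% of long rearrangements (log2 fold change -1.62, SE 0.26, adjusted p = 0.00022). TRBJ1-1 fell from 10.5%, 10.95% and 11.1% to 4.83%, 2.83% and 6.10% (log2 fold change -1.40, SE 0.32, adjusted p = 0.0067). TRBJ1-2 was seen in 0, 3 and 1 long rearrangements, where the 0 of 145 in replicate 1 allows a share of up to 2.07%, against 4.68%, 6.01% and 6.84% of the others (log2 fold change -2.62, SE 0.63, adjusted p = 0.0085). The remaining 6 J genes did not pass. Their log2 fold changes were 0.73 for TRBJ1-6, 0.40 for TRBJ2-4, -0.15 for TRBJ1-3, -0.20 for TRBJ1-4, -0.37 for TRBJ2-5 and -1.29 for TRBJ1-5. Several of the J calls needed all 3 libraries. Without replicate 1, TRBJ2-3 alone was called, and the adjusted p of the other 5 genes ran from 0.086 for TRBJ2-2 to 0.16 for TRBJ2-1. Without replicate 2, the adjusted p was 0.064 for TRBJ1-2, 0.085 for TRBJ2-2, 0.41 for TRBJ1-1 and 0.84 for TRBJ2-1, and without replicate 3 that of TRBJ2-1 was 0.064. Leaving out replicate 2 also moved the log2 fold change of TRBJ2-7 to -2.55 and that of TRBJ1-2 to -3.53. Against TRBs of 15 residues alone, TRBJ2-2 was the only J gene called, with adjusted p of 0.23 for TRBJ2-3 and 0.074 for TRBJ2-7. All kept their direction.

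Seen from the J gene, 32.2% ± 2.40 of TRBJ2-2 rearrangements were long (SD, n = 3), 27.8% ± 6.90 of TRBJ2-3, 21.1% ± 8.37 of TRBJ1-6, 19.7% ± 2.28 of TRBJ2-1 and 18.8% ± 9.30 of TRBJ2-4. At the other end stood 5.65% ± 2.41 of TRBJ1-1, 3.36% ± 1.82 of TRBJ2-7 and 2.34% ± 2.09 of TRBJ1-2. Neighbours within each of these sets overlapped in their spread. Across the 12 genes the mean share that was long went with the number of germline J bases in the CDR3, which runs from 19 to 25 (Pearson's r = 0.56, Spearman's rho = 0.69). This is a description of 12 genes from the same 3 libraries. TRBJ2-3, with 21 bases, lay above TRBJ2-5, also with 21 bases, of which 10.98% ± 1.45 were long.

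The bases that lengthened the CDR3 came mostly from between the V and J genes. Of the 439 long rearrangements, 425 could be divided into germline V, inserted and germline J bases, the rest using TRBV10, whose germline end did not match. They held on average 14.1, 13.9 and 14.7 bases between the V and J matches in replicates 1 to 3, against 9.95, 9.95 and 10.1 in the 13 to 15 residue TRBs. The difference was 4.22 bases ± 0.34 (SD, n = 3). Of it, 2.17 ± 0.52 bases lay in the longest stretch that matched a D segment and 2.06 ± 0.24 bases matched none. Germline J bases added 1.81 ± 0.10 and germline V bases 0.65 ± 0.37. Together these made 6.68 bases, a total that the length limits fix, of which 63.2% was inserted, 27.1% J and 9.68% V.

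The J gene had lost fewer bases in long TRBs of each library, given here as a description with no test. They had lost on average 1.82, 1.53 and 1.44 J bases against 2.798, 2.72 and 2.90, and the J gene was whole in 38.6%, 46.6% and 40.5% against 24.5%, 27.2% and 24.3%. Bases that no segment explained were missing in 2 of 425 long junctions and in 175 of 2423 of the comparison. From 16 to 19 residues the germline V and J parts stayed near 14 to 15 and 20 bases, while the inserted part went from 13.3 bases at 16 residues (331 rearrangements) to 15.9 at 17 (71), 19.4 at 18 (20) and 22.0 at 19 (3). A stretch of TRBD1 followed by a separate stretch of TRBD2, each of at least 6 bases found in that segment alone, was seen in 5 long junctions (1.18%) and in 17 of the comparison (0.70%), and the opposite order, which joining by deletion does not give, in 0 and 4.

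**Figure D3:**
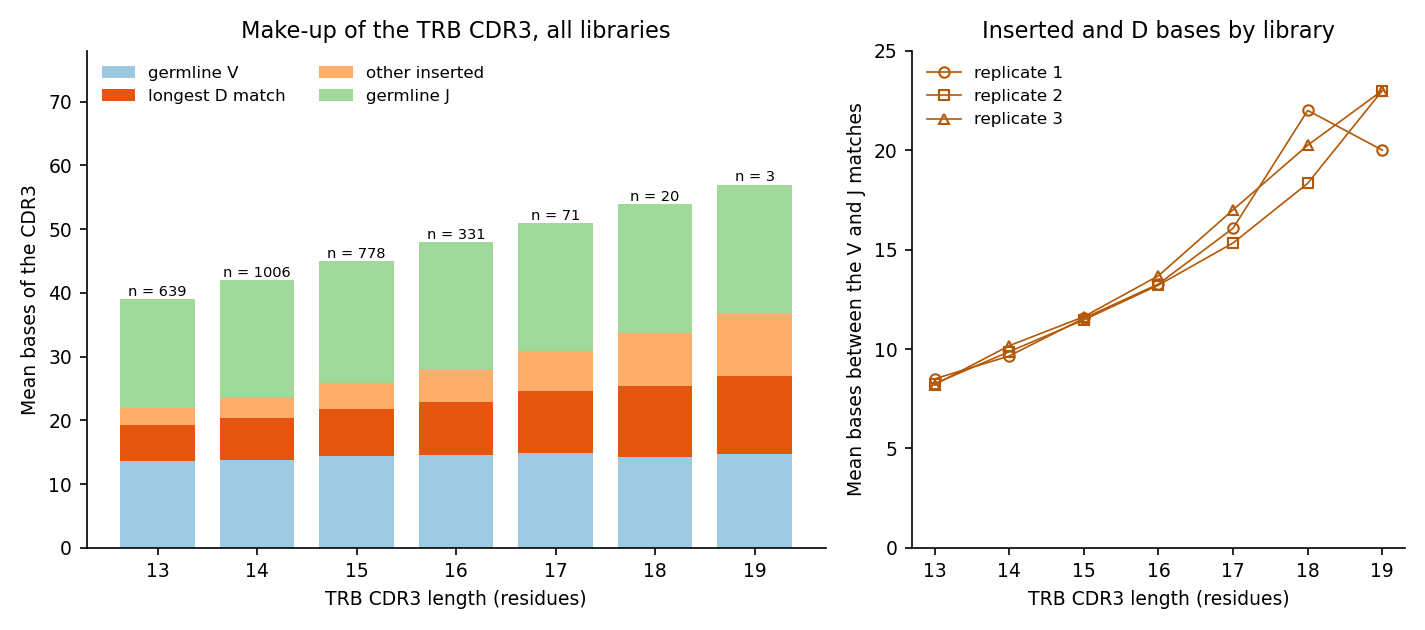
Mean number of CDR3 bases (y axis) from the germline V gene, the longest D match, other inserted bases and the germline J gene at each TRB CDR3 length (x axis, residues), over all libraries on the left with the number of rearrangements above each bar. On the right, the mean bases between the V and J matches in each library rise from 8.20 to 8.50 at 13 residues to between 20 and 23 at 19, where each library has 1 rearrangement.

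At the centre of the loop, taken as the middle 3 residues of odd lengths and the middle 4 of even lengths, long TRBs held more glycine and leucine and less asparagine, glutamine and aspartate. Glycine, the smallest and most flexible residue, made up 39.5%, 39.6% and 41.3% of centre residues in long TRBs and 32.1%, 32.0% and 33.4% in the others (log2 fold change 0.30, adjusted p = 0.0001). A glycine pair stood in the centre of 42.1%, 41.0% and 47.6% of long TRBs against 23.1%, 23.1% and 23.9%. This share per loop is not like for like, since the 4-residue centre of even lengths has more room for a pair. Of the 439 long rearrangements 340 had 16 residues, whereas 1054 of the 2520 others had 14, the only even length among them. Leucine, a hydrophobic residue, made up 6.36%, 4.41% and 5.13% against 2.90%, 2.93% and 3.79% (log2 fold change 0.75, SE 0.20, adjusted p = 0.015). In the residue shares of glycine and leucine the length groups did not overlap, and the same held for tyrosine, which was not called.

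Glutamine made up 2.18%, 3.19% and 1.60% of centre residues in long TRBs against 5.98%, 6.27% and 6.82% (log2 fold change -1.29, SE 0.18, adjusted p = 9.29e-05), and asparagine 4.18%, 5.88% and 5.45% against 8.40%, 8.85% and 7.67% (log2 fold change -0.69, SE 0.11, adjusted p = 0.00026). The asparagine difference turned direction among TRBJ2 rearrangements (log2 fold change 0.17, adjusted p = 0.85). Both are polar residues that the 5′ ends of several J genes encode. Aspartate was also called lower (log2 fold change -0.63, SE 0.16, adjusted p = 0.0096), although replicate 3 went the other way, with 6.73% against 6.57%. Without replicate 1, glycine was called and the adjusted p was 0.084 for glutamine and asparagine, 0.35 for leucine and 0.37 for aspartate; without replicate 2, that of aspartate was 0.84. The aromatic residues tyrosine and tryptophan did not pass, with log2 fold changes of -0.90 (SE 0.31, adjusted p = 0.098) and 0.48 (SE 0.21, adjusted p = 0.30). The other 12 residues tested did not pass either. With the centre narrowed to the middle 1 residue of odd and 2 of even lengths, glutamine (log2 fold change -0.18, adjusted p = 0.99) and leucine (log2 fold change 0.16, adjusted p = 1.0) were no longer called.

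**Figure D4:**
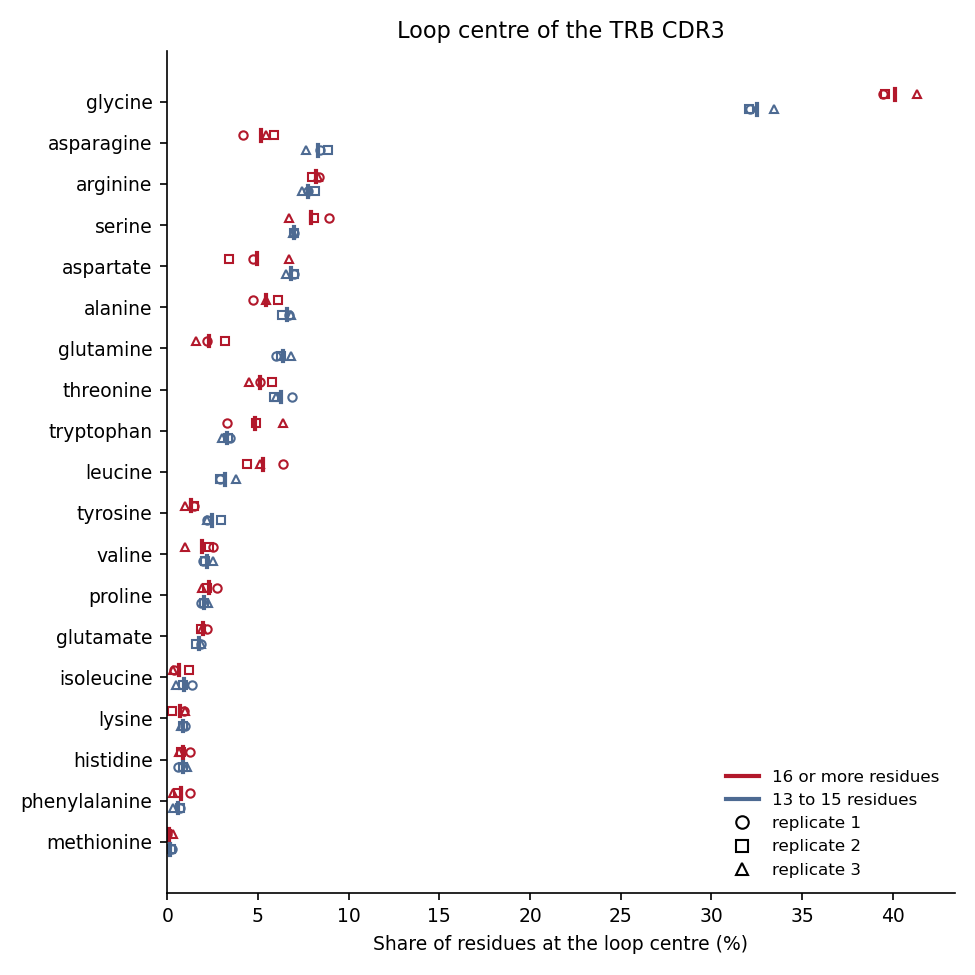
Share of the residues at the centre of the TRB CDR3 loop (x axis, %) for each residue with at least 10 counts (y axis), in long TRBs (red) and TRBs of 13 to 15 residues (blue). Symbols are the 3 libraries and bars their means; glycine is the most common residue in both groups, near 40% in long TRBs and 32.5% in the others.

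Which bases encode the centre differed with length. In long TRBs 89.7%, 89.8% and 90.0% of centre codons lay at least in part between the V and J matches, against 81.8%, 80.9% and 82.6% in the others, and the rest lay in the J gene. With residues counted only from the codons that were not wholly germline, a comparison chosen after seeing the data, glycine (log2 fold change 0.19, adjusted p = 0.045) and aspartate (log2 fold change -0.80, adjusted p = 0.00048) were still called. Asparagine (log2 fold change -0.03, adjusted p = 1.0), glutamine (log2 fold change -0.71, adjusted p = 0.058) and leucine (log2 fold change 0.59, adjusted p = 0.064) were not. Against TRBs of 15 residues alone, none of the 5 residues was called: the log2 fold change was 0.01 for glycine, -0.16 for asparagine and -0.12 for aspartate (adjusted p = 0.97 for each), -0.37 for glutamine (adjusted p = 0.96) and 0.57 for leucine (adjusted p = 0.23). Over all libraries, 63 of 199 TRBD2 matches in long TRBs lay in the frame that encodes threonine, 71 in that with tryptophan and 65 in that with leucine, against 152, 170 and 146 of 468 in the comparison. Within libraries the counts were less even, at 18, 16 and 27 in replicate 1, 37, 33 and 23 in replicate 2 and 8, 22 and 15 in replicate 3.

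The mean Kyte-Doolittle hydropathy of the loop centre, on which higher values are more hydrophobic, was -0.79, -0.80 and -0.99 in long TRBs and -1.12, -1.19 and -1.12 in the others, higher in all 3 libraries by 0.29 ± 0.14 (SD, n = 3). The mean net charge of the centre was higher by 0.08 ± 0.04, also in all 3. Against TRBs of 15 residues alone, the differences were 0.05 in hydropathy and -0.013 in charge. An exact two-sided sign-flip test over 3 libraries cannot go below p = 0.25, the value both reached.

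The V genes of long TRBs spanned 20 of the 22 TRBV names of the series. By deposited name, the most used was TRBV5, with 21.4%, 12.3% and 6.10% of long rearrangements against 12.3%, 9.66% and 7.41% (log2 fold change 0.49, SE 0.23, adjusted p = 0.37). Next came TRBV12-2+TRBV13-2, a combined name that the deposited calls give to a single reference entry. It had 12.4%, 11.3% and 14.6% against 8.90%, 10.4% and 10.3% (log2 fold change 0.31, SE 0.23, adjusted p = 0.77). TRBV1 followed, with 9.66%, 10.8% and 12.2% against 5.85%, 7.68% and 8.83% (log2 fold change 0.55, SE 0.26, adjusted p = 0.39). The order holds for names only. TRBV13-2, counted apart, had 19 long rearrangements beside 54 of the combined name and 62 of TRBV5. The combined name was matched here to the germline end of TRBV13-2, and joining these names would change the order. None of the 21 V names tested was called. The long share of TRBV5 ranged from 6.10% to 21.4% over libraries and spanned that of the comparison. Those of TRBV1 and TRBV12-2+TRBV13-2 lay above the comparison in all 3 libraries without overlap, though neither passed. V and J genes were joined in 146 combinations, the most frequent being TRBV5 with TRBJ2-3 in 6, 7 and 2 rearrangements.

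The partner alpha chain of long TRBs showed no difference in length that ran the same way in all libraries. Over distinct TRB-TRA pairs of cells with exactly 1 TRA, 109, 152 and 43 of them with a long TRB, the mean alpha CDR3 length was 13.8, 13.4 and 13.3 residues beside long TRBs and 13.5, 13.6 and 13.6 beside the others. The difference was -0.09 residues ± 0.27 (SD, n = 3), above 0 in replicate 1 and below it in replicates 2 and 3 (exact two-sided sign-flip p = 0.75). The alpha chains beside long TRBs ran from 9 to 18 residues. Across all pairs of a library, alpha and beta lengths had a Pearson's r of 0.04, -0.02 and -0.04 over 930, 1336 and 316 pairs, which share their library and, in part, their TRB.

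The alpha genes were varied, with 57 TRAV and 42 TRAJ names beside long TRBs. None of 53 TRAV and 40 TRAJ names tested passed, the lowest adjusted p being 0.41 and 0.37, and at an unadjusted p under 0.05 there were 0 and 1. Gene pairs of invariant receptors, judged by V and J names and not by CDR3 sequence, were rare. TRAV11 or TRAV11D with TRAJ18, the genes of the invariant NKT alpha chain, were in 2 of 304 long pairs and 2 of 1884 others. TRAV1 with TRAJ33, those of MAIT cells, were in 4 long pairs, all of replicate 2, and in 9 others. Of cells with a long TRB, 14.5%, 23.9% and 39.7% had no TRA, against 14.996%, 22.8% and 39.8%. A second TRA was found in 10.9%, 6.89% and 9.48% against 8.11%, 5.88% and 1.20% (log2 fold change 0.55, SE 0.29, adjusted p = 0.45). In replicate 3 this was 11 long cells, 4 of them of a single clone.

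**Figure D5:**
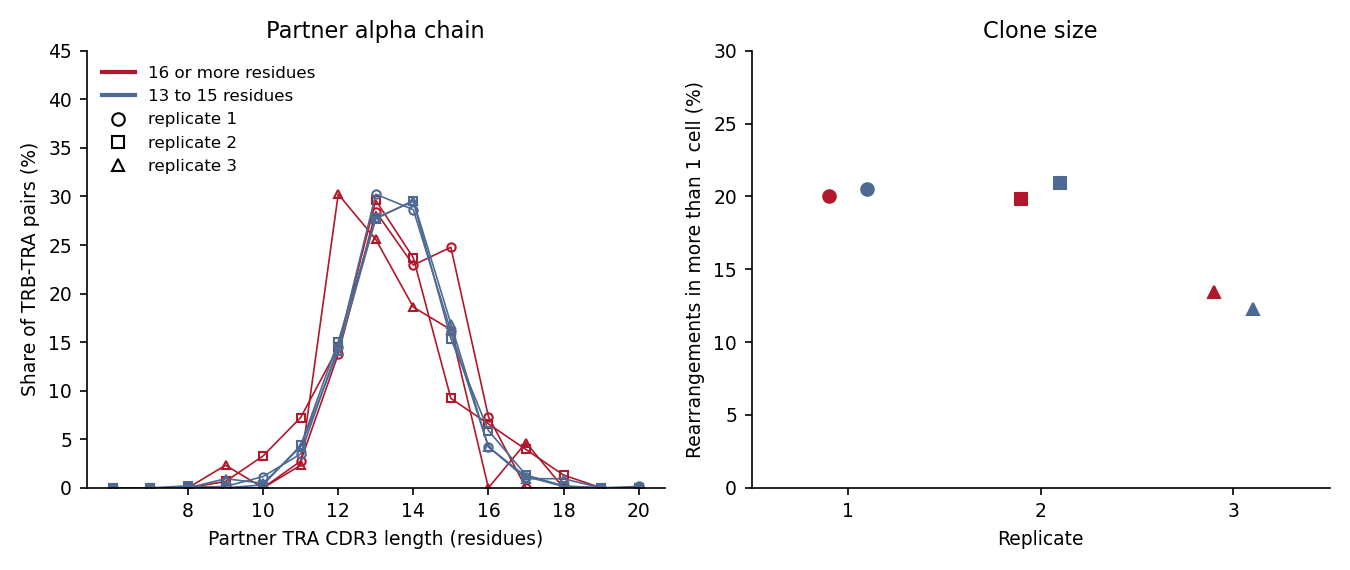
Left, the share of TRB-TRA pairs (y axis, %) at each partner TRA CDR3 length (x axis, residues) for long TRBs (red) and TRBs of 13 to 15 residues (blue) in each library. Right, the share of rearrangements found in more than 1 cell (y axis, %) by library, which lies within 1.2 percentage points between the length groups of each library.

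The share of expanded rearrangements was close between the length groups of a library. Of long rearrangements, 20.0%, 19.8% and 13.4% were found in more than 1 cell, against 20.5%, 20.9% and 12.3% of those of 13 to 15 residues (difference -0.14 percentage points ± 1.17, SD, n = 3; exact two-sided sign-flip p = 1.0). The mean number of cells per rearrangement was 1.52, 1.44 and 1.41 against 1.53, 1.84 and 1.18, lower in replicates 1 and 2 and higher in replicate 3 (difference -0.06 ± 0.32; exact two-sided sign-flip p = 0.75). The largest clones differed more by library. The largest long clones had 9, 13 and 14 cells and the largest of 13 to 15 residues 29, 96 and 7. No long rearrangement had over 20 cells, where 0 of 439 allows a share of up to 0.683%, against 3, 8 and 0 of the comparison (adjusted p = 0.85). UMIs per TRB chain averaged 8.14, 7.26 and 5.58 in long cells and 8.56, 7.92 and 5.38 in the others (difference -0.30 ± 0.45; exact two-sided sign-flip p = 0.50).

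The largest long clone of each library is shown with capitals as above. That of replicate 1 was tied at 9 cells with a TRBV31 and a TRBV3 clone.

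Replicate 1, TRBV16, TRBJ1-3: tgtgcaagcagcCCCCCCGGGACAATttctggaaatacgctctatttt

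Replicate 2, TRBV12-2+TRBV13-2, TRBJ2-2: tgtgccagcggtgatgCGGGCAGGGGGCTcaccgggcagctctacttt

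Replicate 3, TRBV19, TRBJ1-4: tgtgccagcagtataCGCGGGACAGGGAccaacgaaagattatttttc

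All 3 had 16 residues. The 9 cells of the first made up 0.421% of replicate 1 (95% Clopper-Pearson interval 0.193 to 0.797), and 8 of them shared an alpha chain of TRAV8N-2 with TRAJ9. The 13 cells of the second were 0.413% of replicate 2 (0.220 to 0.706), and all 13 shared TRAV7-3 with TRAJ26. The 14 cells of the third were 2.22% of replicate 3 (1.22 to 3.69), 7 of them with TRAV13-1 and TRAJ6 as the only alpha chain, 4 with a second TRA and 3 with none. Within each of these clones, every cell with exactly 1 TRA had the same alpha chain. Of the other clones of 9 cells in replicate 1, the TRBV31 clone had TRAV21-DV12 with TRAJ58 in all 9. The TRBV3 clone with TRBJ2-3, of 17 residues, had no productive TRA in any of its 9 cells at a median of 12 TRB UMIs. In replicate 2 the next largest were a TRBV15 clone with TRBJ2-1 of 9 cells (TRAV6-5 with TRAJ34 in 4, no TRA in 5) and a TRBV5 clone with TRBJ1-6 of 8 cells (TRAV13-2 with TRAJ15 in all 8). In the latter, 6 bases alone separated the whole germline J gene from the V gene. In replicate 3 they were a pair of TRBV12-2+TRBV13-2 clones with TRBJ2-3 of 5 cells each. The alpha chain was TRAV8D-1 with TRAJ24 in 1 clone and TRAV12D-2 with TRAJ31 in the other, found in 3 cells of each, and 2 cells of each had no TRA.

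Long TRBs were seldom found in more than 1 library. Of the long rearrangements, 1 of replicate 1, 0 of replicate 2 (of 212, which allows up to 1.42%) and 1 of replicate 3 had the V gene, CDR3 residues and J gene of a TRB in another library, against 3.63%, 2.13% and 1.71% of those of 13 to 15 residues. The fitted difference did not pass (log2 fold change -2.41, SE 0.83, adjusted p = 0.098), and it passed with cells in place of rearrangements, with chains of at least 3 UMIs, with merged gene names and with all barcodes (adjusted p from 0.010 to 0.027). The adjusted p was 0.96 against 15 residues alone, 0.54 without replicate 1, 0.86 without replicate 2 and 0.062 without replicate 3, with log2 fold changes of -1.65, -2.49, -1.68 and -3.21. No residue sequence among long TRBs of a library was encoded by more than 1 base sequence, against 7 of 2512 (0.279%) in the comparison. The 0 of 439 allows a share of up to 0.683%, so the 2 cannot be told apart.

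The only shared long TRB joined TRBV12-2+TRBV13-2 to TRBJ2-4 in replicates 1 and 3, in 1 cell each. Both its beta and its alpha bases are shown, since both chains were alike in the 2 libraries. In the beta chains capitals are as above, and the alpha chains are in lower case throughout.

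Replicate 1, beta: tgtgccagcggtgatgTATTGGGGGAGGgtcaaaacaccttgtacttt

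Replicate 3, beta: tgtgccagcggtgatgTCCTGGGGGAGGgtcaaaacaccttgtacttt

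Replicate 1, alpha: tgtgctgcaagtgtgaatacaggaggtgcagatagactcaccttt

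Replicate 3, alpha: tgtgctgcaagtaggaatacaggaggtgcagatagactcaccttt

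The beta sequences differed by A18C and T19C, counted from 1 at the 5′ end of the CDR3 with the replicate 1 base first, and encoded the same 16 residues with leucine, glycine, glutamate and glycine at the centre. Their alpha chains used TRAV5D-4 in replicate 1 and TRAV5-4 in replicate 3, near-identical genes of the duplicated TRAV cluster whose calls are uncertain, both with TRAJ45. The alpha CDR3s were both 15 residues long and differed by G13A and T14G, which gave the single residue change V5R, counted from the first residue. Replicates 1 and 3 shared no cell barcode, and the pair rests on 2 cells with 2 and 4 TRB UMIs.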

How the data were processed

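Single-cell TCR libraries (10x Genomics) of sciatic nerve CD45+ cells were assembled by the authors with Cell Ranger on mm10, per the labels. The version is not given in the sources used here. The deposited contig lists differ in their columns between libraries, so the version may differ between them too. The deposited tables list each productive contig of a cell with its V, D and J calls, CDR3, and counts of reads and UMIs, without normalization. Tables of all contigs, consensus sequences and clonotypes were not used here, nor was gene expression. The members, gene lists and tests were chosen with earlier results of these data known.

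Barcodes with exactly 1 productive TRB were kept. No doublet caller was run: barcodes with more than 1 TRB (114, 217 and 10) were left out, and doublets with 1 recovered TRB, which can hold more than 1 TRA, remain. Rearrangements (V gene, CDR3 bases, J gene) were counted once per library and length class, alpha genes over distinct TRB-TRA pairs of cells with exactly 1 TRA, and TRA number over cells. The 6 columns of counts were fitted in edgeR 4.0.16 (R 4.3.3) by the quasi-likelihood test with the library as block and the family total of each column as offset, for features of at least 10 counts, with Benjamini-Hochberg adjustment over all 156. The SE was computed from the F statistic. For glycine and no D call this gave a value smaller than the p of the same test implies, so it is left out for them. Measures with 1 value per library were compared by an exact two-sided sign-flip test. The fit was also run on simulated counts with known changes. These were drawn for each feature on its own, with a set spread and no differences between libraries in the shares. That run therefore does not measure the error rate in these data. Replicates are separate libraries, with 4 mice in all.

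Germline V and J matches were read from GRCm38, the build of mm10, with GENCODE M21 coordinates, as the longest unbroken match at each end of the CDR3; D bases are the longest run shared with a D segment. Both include chance matches, and NOD alleles may differ from this reference. Features named are those called with the same direction in all libraries, aspartate as an exception; every TRBJ and TRBD gene; the 3 most used TRBV genes; the 3 largest long clones and the longest TRB of each library; and the shared long TRB. Tyrosine, tryptophan, TRBV5 with TRBJ2-3 and the second TRA were named after their values were seen. Alternatives covered normalization (TMM, DESeq2 1.42.0), filters, the unit counted, both length limits, gene names, the block, the loop centre and each library left out; inserted codons only and TRBJ2 rearrangements only were added after seeing the data.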

Additional observations from a re-analysis of the deposited data

How the results depend on the processing

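Of the 13 features called, TRBD2 was called under all 16 alternatives, TRBJ2-2, TRBJ2-3, TRBJ2-7 and glycine under 14 each, and TRBJ2-1 under 5; none turned its direction except asparagine. The number called was 5 with DESeq2 (TRBD2, TRBJ2-2, TRBJ2-3, TRBJ2-7 and glutamine), where glycine had an adjusted p of 0.42. It was 5 with 17 or more residues as the limit (TRBD2, TRBJ2-2, TRBJ2-7, asparagine and glycine) and 2 with 15 residues alone as the comparison (TRBD2 and TRBJ2-2, of 124 features tested). With 1 library left out it was 4 to 12 (4 without replicate 1, 8 without replicate 2). Fewer samples, features or rearrangements entered these fits than the main fit, except with DESeq2. Against 15 residues alone, every feature called in the main fit also had a log2 fold change of smaller size, that of glycine being 0.01 against 0.30. The cause of the lost calls was not tested in any of these settings. The number called was 9 to 14 under the other settings, and all calls of the fit with no replicate block, 12 in number, were among the 13. Directions turned, none past the threshold, for TRBD1 with 17 or more residues (log2 fold change -0.051), against 15 residues alone (-0.011) and among TRBJ2 rearrangements (-0.14), for TRBJ1-4 over cells (0.14), for TRBJ2-5 and TRBV12-2+TRBV13-2 with 17 or more residues (0.13 and -0.11), and for asparagine among TRBJ2 rearrangements (0.17). TRBJ2-5 was called lower among TRBJ2 rearrangements alone (log2 fold change -0.63, adjusted p = 0.045).

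The measures that lay near 0 had no stable sign. The difference in alpha length ran from -0.235 to 0.0257 residues with 1 library left out. That in the share of rearrangements with more than 1 cell was 1.00 percentage points with chains of at least 3 UMIs, 1.16 with all barcodes, and -0.80 to 0.34 with 1 library left out. Cells per rearrangement ran from -0.20 to 0.11 with 1 library left out, and net charge was -0.013 against 15 residues alone. The glycine share of the centre, 7.64 percentage points higher in long TRBs, was 0.674 higher against 15 residues alone and 15.3 at 17 or more residues, and hydropathy fell from 0.29 to 0.05 against 15 residues alone. UMIs per TRB differed by -1.14 at 17 or more residues and by -0.11 without replicate 2. The long share ran from 10.02% without replicate 3 to 14.3% without replicate 2. Limits were the 3 libraries, of which 1 pooled 2 mice, and the 82 long rearrangements of replicate 3; no control group exists, and what length brings by construction cannot be told apart from what the J and D genes bring.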
